A study of Mus musculus with 6 samples.

Results

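Interferon beta (Ifnb1) and 8 members of the interferon regulatory factor family (Irf1, Irf2, Irf3, Irf4, Irf5, Irf7, Irf8 and Irf9) were followed in RAW 264.7 cells, a mouse macrophage line, after exposure to bacterial lipopolysaccharide (LPS). The genes were selected by symbol in the platform's probe annotation. Each had a single probe, which gave 9 probes of 16281 on the array and 9 genes of 10698 with a symbol of their own. All 9 held a value other than exactly 0 on all 6 arrays. For 4 h, treated cells were given 100 ng/ml LPS along with LPS-binding protein, the serum protein that carries LPS to its receptor, at 100 pM, and the cells set against them were left untreated for the same time. Each array carried total RNA of treated and of untreated cells in different dyes. Treated RNA was in Cy5 on 3 arrays and in Cy3 on the other 3, and in either orientation the arrays bear set numbers 1 to 3. RAW 264.7 is a single tumour-derived line, and no label says whether separate cultures were used for the sets. The p-values from set means therefore measure only the spread between averages of same-numbered arrays, which may be technical.

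Interferon beta is a secreted antiviral cytokine that macrophages make when Toll-like receptors or nucleic acid sensors fire. Its gene is switched on by IRF3, a factor already present in resting cells and activated by phosphorylation, together with NF-κB and AP-1 bound side by side at the promoter. The secreted cytokine then acts through its receptor on the complex ISGF3, to which STAT2 and IRF9 belong and which turns on antiviral genes, Irf7 among them. IRF7 in turn can drive further interferon genes. IRF1 is an early-induced activator, IRF2 its counterpart and frequent repressor, IRF5 a partner of MyD88 in cytokine induction, and IRF4 and IRF8 are lineage factors of lymphoid and myeloid cells that often bind with the factor PU.1.

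The bases upstream of the annotated starts are shown for the 4 genes whose windows held any match to the motifs named below. Of these, 3 genes (Ifnb1, Irf1 and Irf8) rose at least 2-fold, while Irf2 did not. Irf7 also rose at least 2-fold, and its window held no match. The share of all windows with a match to any of the 4 motifs was not computed, so this count has no background beside it. Whether any match is a working site was not tested. The sequences come from RefSeq (GRCm38.p6), where all 9 genes matched by symbol with 12 start windows in all. Each is 250 bases long, is written 5′ to 3′ on the gene's own strand and ends at the base before the start. Capitals mark matches to the IRF core AANNGAAA, the core of the interferon-stimulated response element (GAAA, any 2 bases, GAAA), the STAT site GAS (TTCNNNGAA) and the κB consensus, all searched on both strands. The regions are chr4:88522795-88523044 (minus strand) for Ifnb1, chr11:53769764-53770013 (plus strand) for Irf1, chr8:120736108-120736357 (plus strand) for Irf8 and chr8:46739495-46739744 (plus strand) for Irf2.
Ifnb1: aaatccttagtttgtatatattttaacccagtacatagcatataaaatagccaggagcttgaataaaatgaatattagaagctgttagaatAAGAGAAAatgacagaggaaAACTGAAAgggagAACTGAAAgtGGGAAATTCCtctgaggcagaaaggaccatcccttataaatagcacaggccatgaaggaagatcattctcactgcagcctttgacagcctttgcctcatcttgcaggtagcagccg
Irf1: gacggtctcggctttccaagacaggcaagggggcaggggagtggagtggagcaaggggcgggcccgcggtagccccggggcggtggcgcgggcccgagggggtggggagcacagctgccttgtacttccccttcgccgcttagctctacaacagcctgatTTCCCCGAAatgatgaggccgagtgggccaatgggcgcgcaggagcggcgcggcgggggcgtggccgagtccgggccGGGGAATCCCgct
Irf8: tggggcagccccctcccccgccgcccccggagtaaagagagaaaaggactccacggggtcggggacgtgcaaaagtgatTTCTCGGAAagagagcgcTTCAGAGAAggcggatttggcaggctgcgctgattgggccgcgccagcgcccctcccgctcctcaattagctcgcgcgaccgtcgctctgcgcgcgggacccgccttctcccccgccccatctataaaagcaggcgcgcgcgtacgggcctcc
Irf2: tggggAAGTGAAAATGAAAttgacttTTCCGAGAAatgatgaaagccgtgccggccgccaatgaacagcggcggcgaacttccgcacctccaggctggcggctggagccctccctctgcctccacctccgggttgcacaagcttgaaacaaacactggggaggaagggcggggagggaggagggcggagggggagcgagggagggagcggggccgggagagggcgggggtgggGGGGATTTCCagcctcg

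The Ifnb1 window held 3 IRF core matches, at 159 to 152, 139 to 132 and 126 to 119 bases before the start. A κB match, GGGAAATTCC, followed at 116 to 107 bases. IRF core matches were present in 21.3% of 32851 windows of the same length across the genome's genes, and κB matches in 7.25%. The Irf1 window had a GAS match, TTCCCCGAA, at 90 to 82 bases and 1 κB site, GGGGAATCCC, at 13 to 4 bases, which matched on both strands. Irf8 had 2 GAS matches, TTCTCGGAA at 171 to 163 bases and TTCAGAGAA at 153 to 145 bases. GAS matches occurred in 7.02% of all windows. Irf2 held matches of all 4 kinds. Its response element core, GAAAATGAAA at 241 to 232 bases, overlapped both of its IRF core matches, and such a core was present in 2.98% of all windows. No match to any of the 4 motifs was found in the windows of Irf3, Irf4, Irf5, Irf7 or Irf9, or in the second windows of Irf1 and Irf8, which says only that these letters are not there. The Irf5 window lay wholly, and the Irf7 window partly, inside the gene as annotated. The bases before the gene's first base were thus not searched for Irf5 and only in part for Irf7.

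Of the 9 genes, 6 rose in treated cells, 0 fell and 3 did not pass the threshold (limma, Benjamini-Hochberg adjusted p below 0.05 over 11364 features). Of all features tested 29.0% passed, and 14.0% passed as higher and 15.0% as lower. The rise reached 2-fold in 4 of the 9 genes, against 1.87% of all features, and 5 of the 9 were higher on all 6 arrays, against 12.4% of all features. Unless given as a fold or a ratio, all values below are on the log2 scale, as treated over untreated RNA with the sign turned where treated RNA was in Cy3, and means carry the SD over the sets (n = 3). That direction takes the deposited ratio as Cy5 over Cy3, which is likely but not stated. As deposited, arrays of opposite orientation correlated between -0.775 and -0.397 across features, and with the opposite convention all signs would flip. The table holds no intensities, so neither the level of any gene nor the macrophage label could be checked here. In bulk RNA, more cells responding and more RNA per responding cell cannot be told apart.

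**Figure D1:**
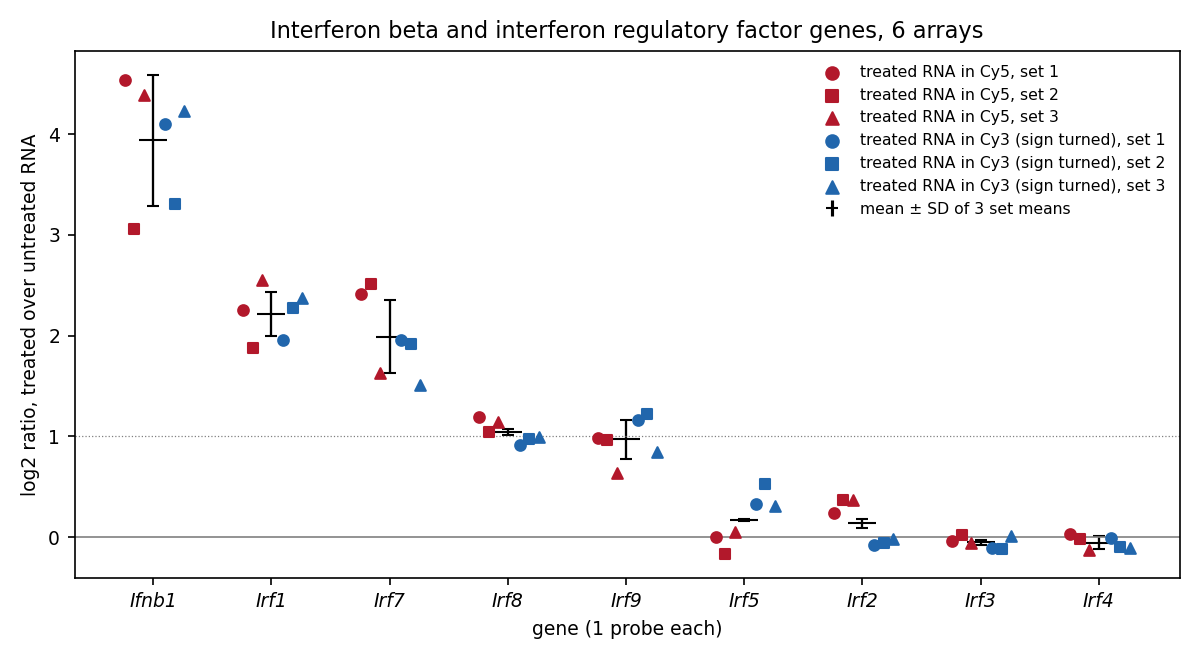
Log2 ratio of treated over untreated RNA for each of the 9 genes on each of the 6 arrays (red, treated RNA in Cy5; blue, treated RNA in Cy3 with the sign turned; symbols give the set), with the mean ± SD of the 3 set means in black. Ifnb1 lies between 3.06 and 4.54 on all arrays, Irf1, Irf7, Irf8 and Irf9 are above 0 on all 6, and the red and blue points of Irf5 and Irf2 lie apart on either side of their means.

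Ifnb1 had the strongest response. Its log2 ratio was 4.54, 3.06 and 4.39 with treated RNA in Cy5 (sets 1, 2 and 3) and 4.10, 3.31 and 4.23 with treated RNA in Cy3. Set 2 was the lowest in both orientations, by more than the orientations differed within any set. The mean was 3.94 ± 0.65, a 15.3-fold rise (limma 95% interval 11.0 to 21.3; adjusted p = 9.49e-06), which ranked 8 among 9574 named genes. The same gene had the largest SD between sets of all those named genes. limma shrinks such an SD towards that of other genes, so its interval is narrower than the standard error of 0.377 from the gene's own 3 values would give. Without set 2 the mean was 4.31, and with the arrays put on one scale set 2 was still lowest, at 2.71 against 4.29 in set 1 and 5.12 in set 3.

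Irf1, the early-induced activator, had the highest mean among the factors, although Irf7 exceeded it in sets 1 and 2. It read 2.26, 1.88 and 2.55 on the arrays with treated RNA in Cy5 and 1.95, 2.27 and 2.38 on those with it in Cy3. The orientations overlapped, and all values stood clear of 0. The mean was 2.21 ± 0.22, or 4.64-fold (interval 4.09 to 5.26; adjusted p = 1.22e-06), at rank 58.

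Irf7, the factor that amplifies interferon production, had 2.41, 2.51 and 1.63 with treated RNA in Cy5 and 1.95, 1.91 and 1.51 with it in Cy3. Set 3 was the lowest in both orientations. The mean was 1.99 ± 0.36, or 3.97-fold (interval 3.28 to 4.80; adjusted p = 1.91e-05), at rank 76. Irf9, the DNA-binding subunit of ISGF3, also had its lowest values in set 3. Its ratios were 0.98, 0.96 and 0.64 with treated RNA in Cy5 and 1.17, 1.22 and 0.84 with it in Cy3, which gave 0.97 ± 0.20 (1.96-fold, interval 1.74 to 2.20; adjusted p = 6.38e-05). Set 3 was the lowest set for 89 of the 213 features that rose at least 2-fold, in 66 of them in both orientations, and set 2 for 73 of them, in 39 in both. On one common scale Irf7 was at 2.16, 1.86 and 1.87 in sets 1, 2 and 3, so the dip in set 3 alone depended on the scaling of the arrays. Irf9 was at 1.07, 0.93 and 0.88.

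Irf8, the myeloid lineage factor that binds with PU.1, rose on all 6 arrays. It read 1.19, 1.04 and 1.14 with treated RNA in Cy5 and 0.92, 0.97 and 0.99 with it in Cy3, so all 3 Cy5 arrays lay above all 3 Cy3 arrays. Its mean was 1.04 ± 0.032, or 2.06-fold (interval 1.92 to 2.21; adjusted p = 2.68e-06). Of the named genes 13.7% had a smaller SD between sets. That SD depended on the scaling, since with the arrays put on one scale Irf8 stood at 1.04, 0.85 and 1.27 in sets 1, 2 and 3. Irf8 ranked 185 and Irf9 201 among the named genes, so that 5 of the 9 genes were within the first 250 rises.

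**Figure D2:**
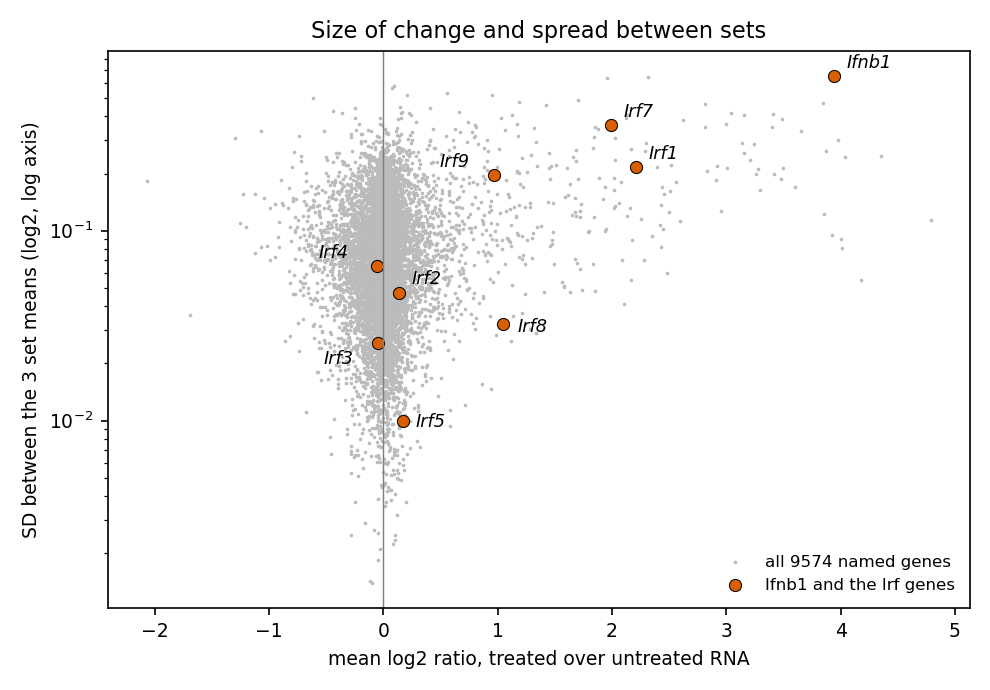
Mean log2 ratio of treated over untreated RNA (horizontal) against the SD between the 3 set means (vertical, log axis) for 9574 named genes in grey, with Ifnb1 and the Irf genes in orange. Ifnb1 combines a mean of 3.94 with the largest SD of all (0.65), while Irf8 at 1.04 has an SD of 0.032 and Irf5 at 0.17 one of 0.010, in averages of same-numbered arrays without scaling (on one scale the set means of Irf8 run from 0.85 to 1.27).

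Irf5, the partner of MyD88, passed the threshold at a small size, and its 2 dye orientations disagreed. It stood at -0.0029, -0.17 and 0.050 with treated RNA in Cy5 and at 0.33, 0.53 and 0.31 with it in Cy3. The groups of arrays did not overlap, and only those with treated RNA in Cy3 were all above 0. In each set the orientations averaged to nearly the same value, 0.16, 0.18 and 0.18, and the mean was 0.17 ± 0.010 (1.13-fold, interval 1.05 to 1.21; adjusted p = 0.0168). With the 6 arrays taken as separate values it was lost (adjusted p = 0.267), it was lost without set 1 (adjusted p = 0.0638) and without set 2 (adjusted p = 0.0670), and on the arrays with treated RNA in Cy5 alone the mean was -0.040 (adjusted p = 0.717). The dye component, the mean of the unturned ratios in which the treatment cancels, was -0.21 ± 0.12, larger in size than the treatment component.

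Irf2, the repressor counterpart of Irf1, had the reverse pattern. It read 0.24, 0.37 and 0.37 with treated RNA in Cy5 and -0.075, -0.063 and -0.021 with it in Cy3. No array of either orientation came within the range of the other. The mean of 0.14 ± 0.047 (interval on the log2 scale 0.034 to 0.24) did not pass (adjusted p = 0.0536), although the arrays with treated RNA in Cy5 did when taken alone (mean 0.33, adjusted p = 0.0356). The dye component was 0.19 ± 0.029. Irf2 and Irf5 were the 2 of the 9 genes whose dye component exceeded the treatment component, which was so for 49.3% of all features. By the set means, 0 features passed the limma test for a dye effect (0% called), with 2630 at an unadjusted p below 0.05. With the 6 arrays as separate values and no replicate block, 554 passed.

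Irf3, which starts the response as a protein already in the cell, had ratios of -0.042, 0.021 and -0.063 with treated RNA in Cy5 and -0.11, -0.12 and 0.0094 with it in Cy3. Its mean was -0.051 ± 0.026 (adjusted p = 0.432), and the interval ran from 0.902 to 1.03 as a ratio. Irf4, the lymphoid factor, read 0.029, -0.020 and -0.13 with treated RNA in Cy5 and -0.012, -0.10 and -0.11 with it in Cy3, a mean of -0.058 ± 0.065 (adjusted p = 0.414, ratio interval 0.892 to 1.03). For both genes the values lay on both sides of 0 and the orientations overlapped.

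Ordered by mean log2 ratio, the genes ran Ifnb1, Irf1, Irf7, Irf8, Irf9, Irf5, Irf2, Irf3 and Irf4. Of the 8 pairs of neighbours in this order, the set means did not overlap in 4. Ifnb1 exceeded Irf1 by 1.72 ± 0.56, Irf7 exceeded Irf8 by 0.95 ± 0.38, Irf9 exceeded Irf5 by 0.80 ± 0.20 and Irf2 exceeded Irf3 by 0.19 ± 0.023, each in all 3 sets. The last difference depended on the orientation. With treated RNA in Cy5, Irf2 was above Irf3 in every set. With it in Cy3, the Irf2 values (-0.075, -0.063 and -0.021) lay within the range of Irf3 (-0.12 to 0.0094). Irf1 and Irf7 differed by 0.23 ± 0.58 and Irf8 and Irf9 by 0.074 ± 0.22, with 1 of 3 sets in that order in each case. With 3 sets an exact sign-flip test of a pair cannot go below p = 0.25, so these differences are given without a test, and probes may differ in how far they compress a ratio.

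The ratios of the other interferon genes lay near 0. Alpha interferons are type I cytokines that use the same receptor, and 10 of their genes were present with 12 probes, of which 10 probes were measured on all 6 arrays. Their mean log2 ratios lay between -0.063 (Ifna9) and 0.096 (Ifna1), with values of these 10 probes on single arrays from -0.55 to 0.43, whereas the lowest single value of Ifnb1 was 3.06. Of the 9 genes of the list of other interferons measured on all 6 arrays, Ifng included, 0 passed the limma threshold in either direction. Their median was 0.023, against 7.9e-04 over all features. Ifna1 was at 0.096 ± 0.046 (adjusted p = 0.152), and Ifng was at 0.023 ± 0.058 (named after its value was seen; adjusted p = 0.762). Alpha interferon genes are close copies of each other, so a probe may bind several of them, and without intensities a ratio near 0 cannot be told from a probe with no signal.

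**Figure D3:**
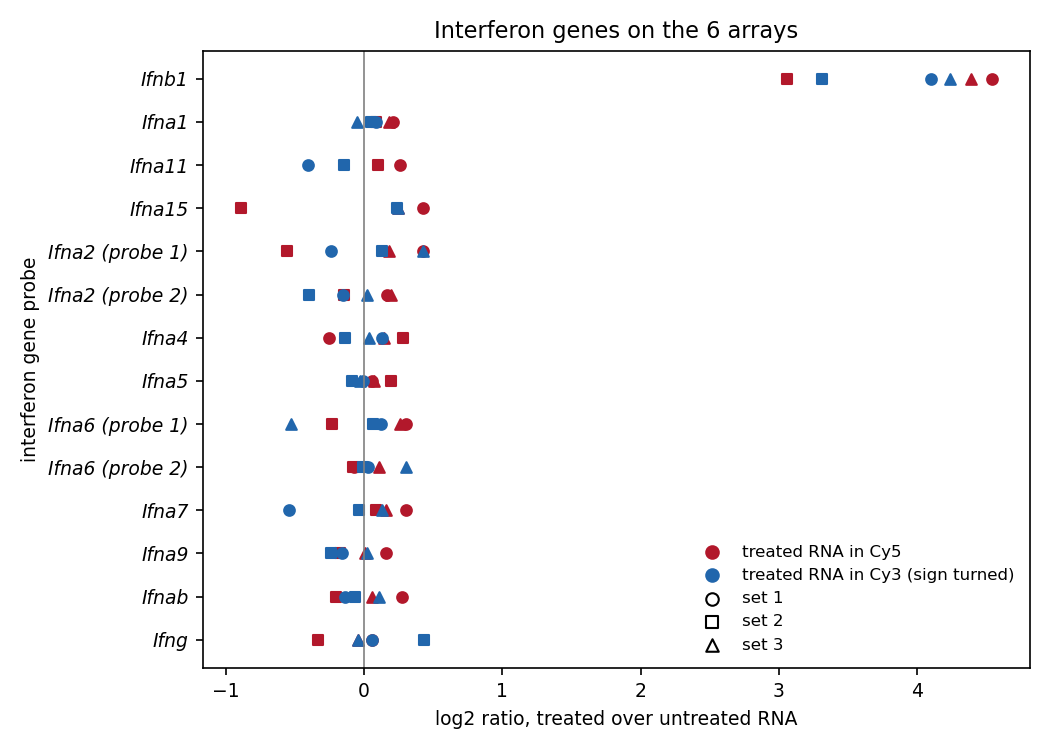
Log2 ratio of treated over untreated RNA on each array for Ifnb1 and for the probes of the alpha interferon genes and Ifng with values on at least 4 arrays (red, treated RNA in Cy5; blue, treated RNA in Cy3 with the sign turned; symbols give the set). Every Ifnb1 point is at 3.06 or above, while the other probes scatter around 0.

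Upstream of the factors, the route from the LPS receptor to IRF3 and IRF7 had 6 rises, 1 fall and 5 genes short of the threshold among 12 measured, with a median of 0.27. Tlr4, the LPS receptor itself, was the gene that fell, at -0.55 ± 0.076 (adjusted p = 1.27e-04), from 2 probes. A further Tlr4 probe, measured on 5 arrays, averaged -0.19. With probes measured in at least 2 sets included, Tlr4 stood at -0.47 (limma adjusted p = 0.00112). Ikbke, a kinase that phosphorylates IRF3 and IRF7, averaged 1.06 ± 0.067, but its 2 probes differed, at 2.15 and -0.025. Its relative Tbk1 rose by 0.44 ± 0.10 (adjusted p = 6.50e-04), with both probes alike. The kinase adaptor gene Azi2 rose by 0.72 ± 0.012 and the receptor adaptor gene Myd88 by 0.72 ± 0.068, while Ikbkb (0.13 ± 0.025) and Traf6 (0.11 ± 0.023) did not pass. Azi2 stood at 0.53 with treated RNA in Cy5 alone and at 0.91 with it in Cy3 alone. Traf6 stood at 0.26 and -0.042 in the same order. Ticam1, the adaptor that links TLR4 to IRF3, was not analysed here. The nucleic acid sensors that feed the same factors rose in 6 of 7 cases and fell in 0 (median 2.12). All samples were taken at 4 h, so whether these rises came before or after that of Ifnb1 was not tested. Ifih1, a sensor of long double-stranded RNA, rose by 3.13 ± 0.29, its relative Dhx58 by 2.30 ± 0.29 and the Z-form nucleic acid sensor gene Zbp1 by 2.28 ± 0.070, whereas Sting1, the adaptor of DNA sensing, was at 0.091 ± 0.068 (adjusted p = 0.198).

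Of 6 measured genes for the proteins that act with IRFs on the Ifnb1 promoter, 0 rose and 1 fell (median 0.064). Kat2a, a histone acetyltransferase gene, was the one that fell (-0.17 ± 0.021, adjusted p = 0.0171). The call was lost without set 1 (adjusted p = 0.0829), without set 3 (0.0537), with the set as a fixed replicate block (0.0945) and on either orientation alone (0.108 with treated RNA in Cy5 and 0.135 with it in Cy3). Jun, an AP-1 subunit, was at 0.14 ± 0.17 (adjusted p = 0.155) and Atf2, its dimer partner, at 0.13 ± 0.14 (adjusted p = 0.152). Without set 2, Jun was at 0.24 and passed (adjusted p = 0.00750), and it stood at -0.18 with treated RNA in Cy5 alone and at 0.46 with it in Cy3 alone (adjusted p = 0.0423). On the arrays with treated RNA in Cy5 alone Atf2 stood at -0.68, and on those with it in Cy3 alone at 0.94 (adjusted p = 0.0114). Among cofactors that bind with IRFs, 4 of 9 rose and 0 fell (median 0.089). Batf, a basic leucine zipper partner of IRF4 and IRF8, rose by 0.88 ± 0.19, the ETS factor gene Ets2 by 0.82 ± 0.18 and Spi1, the gene of PU.1, by 0.50 ± 0.15 (adjusted p = 7.32e-04). The Batf call was lost with treated RNA in Cy5 alone (0.65, adjusted p = 0.0830). Tcf3 (-0.12 ± 0.025) and Bcl6 (0.089 ± 0.15) did not pass.

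In the list of interferon receptors, Janus kinases and STATs, 5 of 8 measured genes rose, 2 fell and 1 did not pass. This list is wider than the route from interferon beta to ISGF3, since it includes subunits of the interferon gamma receptor. The smallest of the 5 rises was that of Jak1, at 0.16 ± 0.039 (named after its value was seen; limma adjusted p = 0.0266). Stat3 rose by 0.89 ± 0.075, Jak2 by 0.87 ± 0.044 and Tyk2, a kinase of the interferon receptor, by 0.74 ± 0.12. Of the interferon receptor subunits, Ifnar2 fell, at -0.16 ± 0.059 (adjusted p = 0.0310), a call that was lost with the 6 arrays as separate values (adjusted p = 0.127) and without set 1 and without set 2 (adjusted p = 0.134 and 0.149), and Ifnar1 was at -0.077 ± 0.058 (adjusted p = 0.261). The other fall was that of Ifngr1, a subunit of the interferon gamma receptor, at -0.37 ± 0.022 (named after its value was seen; adjusted p = 4.99e-04). Stat2, which pairs with IRF9 in ISGF3, was listed at exactly 0 on 1 array and ranged from 2.23 to 2.64 on the other 5. Averaged over the 2 complete sets its rise was 2.36 (limma adjusted p = 2.25e-06, from the features with 2 or more complete sets). The highest value of its partner Irf9 on any array was 1.22.

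Downstream, the listed ISGF3 targets rose in 13 of 13 measured cases, with a median of 3.66. The gene of viperin, Rsad2, rose by 4.36 ± 0.25, and the translation inhibitor genes Ifit2 and Ifit1 by 4.01 ± 0.081 and 4.00 ± 0.091. These SDs over sets leave out the gap between orientations. With treated RNA in Cy5 alone Rsad2, Ifit2 and Ifit1 stood at 5.08, 4.27 and 4.49. With treated RNA in Cy3 alone they stood at 3.64, 3.75 and 3.51. The Ifit1 value rests on 1 probe. With probes measured in at least 2 sets included, Ifit1 stood at 3.46 (limma adjusted p = 1.89e-04). The smallest of the 13 changes was 0.23. Genes with known IRF1 input rose in 12 of 17 cases and fell in 0 (median 0.72). The guanylate-binding protein genes Gbp3 and Gbp2 rose by 3.26 ± 0.20 and 3.04 ± 0.42, and Ptgs2, the inducible prostaglandin synthase, by 1.85 ± 0.35, while the immunoproteasome subunit gene Psmb9 was at 0.18 ± 0.17 and the interleukin-12 subunit gene Il12a at 0.13 ± 0.11. Psmb9 was at 0.084 without set 1, and at 0.25 and past the threshold without set 2 (adjusted p = 0.00609). Il12a stood at -0.23 with treated RNA in Cy5 alone and passed at 0.48 with it in Cy3 alone (adjusted p = 0.0146), and the Ptgs2 call was lost with treated RNA in Cy5 alone (1.47, adjusted p = 0.0515). The 2 probes of Il12a differed, at -0.034 and 0.29, and the higher passed in the limma fit of single probes (adjusted p = 0.0209). Those of Gbp3 stood at 2.36 and 4.16. Genes with known IRF5 input rose in 5 of 9 cases and fell in 0 (median 1.56). That median was the value of Ccl5 (named after its value was seen), whose 2 probes differed, at 0.20 and 2.93. Ccl5 was also listed among the ISGF3 targets. The cytokine genes Il1b (4.17 ± 0.055), Ccl4 (3.48 ± 0.19) and Il6 (2.81 ± 0.46) led the IRF5 list. With treated RNA in Cy5 alone Il1b, Ccl4 and Il6 stood at 4.74, 3.79 and 2.86. With treated RNA in Cy3 alone they stood at 3.61, 3.17 and 2.77. Il12b was at 0.042 ± 0.073 (adjusted p = 0.566).

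Genes with known IRF8 or IRF4 input were mixed. Of 14 measured, 6 rose, 1 fell and 7 did not pass, and the median was 0.097. The nuclear body gene Pml rose by 1.58 ± 0.051, Cybb, the NADPH oxidase subunit that IRF8 and PU.1 drive, by 1.22 ± 0.094 and the antibody receptor gene Fcgr1 by 1.14 ± 0.13. Klf4, a transcription factor gene and the only fall, was at -0.47 ± 0.091 (named after its value was seen; adjusted p = 3.43e-04), and Cst3 (-0.12 ± 0.030) and Nf1 (0.10 ± 0.079) did not pass. Attenuators of interferon induction or signalling rose in 10 of 13 cases and fell in 0 (median 1.25). Usp18, which blocks the interferon receptor, rose by 3.41 ± 0.41, the ubiquitin ligase gene Trim21 by 2.48 ± 0.060 and Trim30a by 2.16 ± 0.27, whereas Pias1 (-0.079 ± 0.035) and Ptpn2 (0.037 ± 0.053) did not pass. All these lists were drawn up from known biology with earlier results of these data in view, so their counts describe them and nothing more.

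**Figure D4:**
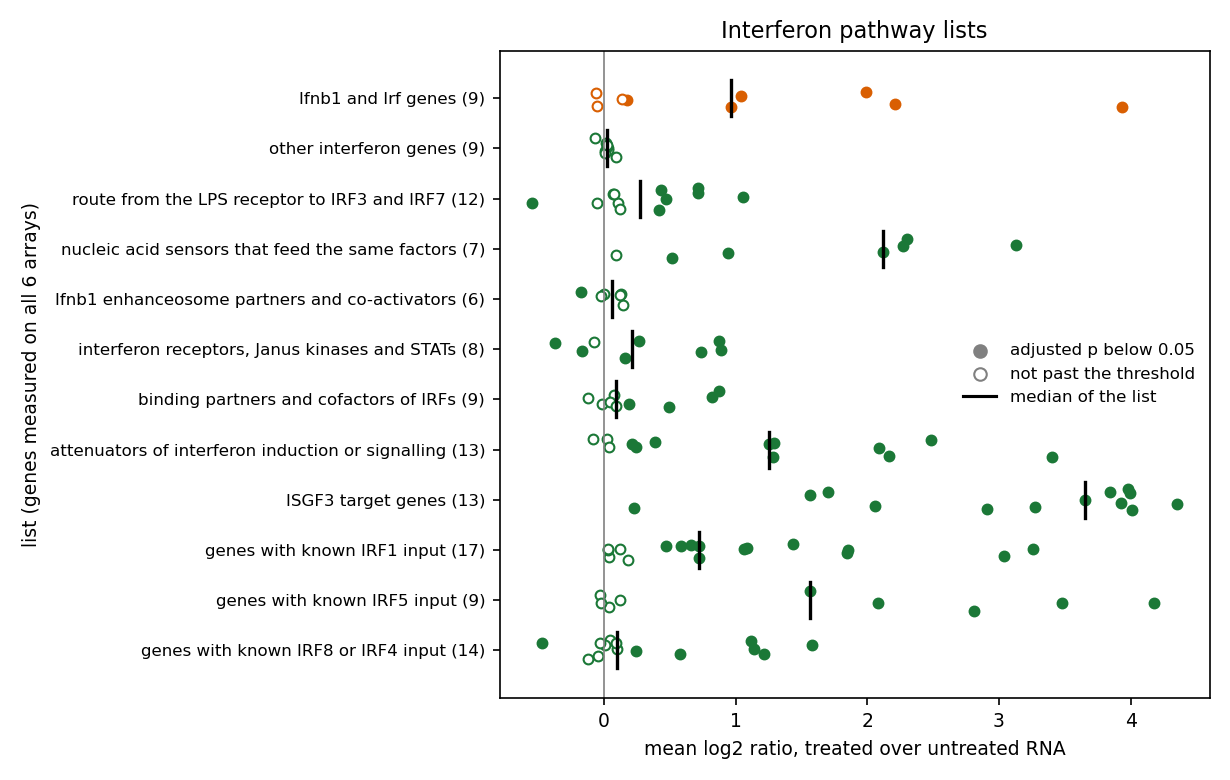
Mean log2 ratio of treated over untreated RNA for the 9 genes (orange) and for 11 lists of genes around them (green), with the number measured on all 6 arrays in brackets, filled points for an adjusted p below 0.05 and black bars for medians. Medians exceed that of the 9 genes (0.97) for ISGF3 targets (3.66), nucleic acid sensors (2.12), genes with known IRF5 input (1.56) and attenuators (1.25). The IRF5 median is the value of Ccl5, whose 2 probes differ (0.20 and 2.93). The other interferon genes and the Ifnb1 enhanceosome partners lie around 0.

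Over the 6 arrays, the named genes whose ratios were closest to those of each gene that rose at least 2-fold were found by the root mean square difference on the log2 scale. For Ifnb1 these were the nucleotide kinase gene Cmpk2 (0.46), the co-stimulatory receptor gene Cd40 (0.52) and Ifit2 (0.52). None of the 3 was as close to Ifnb1 as the neighbours of the other genes were to them. Irf1 was nearest to Zbp1 (0.19), the ubiquitin ligase gene Herc6 (0.20) and the complement receptor gene C3ar1 (0.22). Irf7 was nearest to Rb1cc1 (0.16), Rtp4 (0.17) and the galectin gene Lgals9 (0.22). For Rb1cc1 the mean hid probes at 0.085 and 3.96, neither of them near Irf7. Irf8 lay nearest to Ikbke (0.063), the NF-κB subunit gene Relb (0.074) and the stress phosphatase regulator gene Ppp1r15a (0.11), and for Ikbke too the mean lay between its 2 unequal probes. Herc6 and Ifit2 were also means of 2 probes, at 1.86 and 2.47 for Herc6 and at 3.71 and 4.32 for Ifit2.

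Macrophage markers moved in both directions, with 4 rises and 1 fall among 8 measured, from -0.30 to 1.14. Of 31 measured markers of other cell types, 3 rose and 0 fell, between -0.087 and 0.64, and their part in the results was not tested. Gapdh, often used as a reference, was at 0.035 ± 0.035 (adjusted p = 0.610). Actb, another, rose by 0.28 ± 0.17 (adjusted p = 0.0167), a call lost on either orientation alone (adjusted p = 0.172 with treated RNA in Cy5 and 0.0626 with it in Cy3), and without set 3 it was at 0.18 (adjusted p = 0.0455).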

How the data were processed

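The values were log2 ratios of the 2 channels of each array as deposited, 1 per probe and array, with a median of 0 on every array. The log base was read from the maximum of 6.64, the log2 value of 100. The scanner, background correction and normalization are not given in the sources used here, and no intensities were used, so dim probes could not be filtered and depth is unknown. Exact zeros (1254 to 2086 per array) were taken as not measured. Where Cy3 held the treated RNA the sign was turned, probes of 1 gene measured on all 6 arrays were averaged, and both arrays of a set number were averaged, which cancels a dye effect and takes the arrays of a set as repeats of the same RNA. The labels write the line as RAW 264.4 in places. The 3 set values of 11364 features were tested against 0 with limma 3.58.1 in R 4.3.3 (lmFit, eBayes, two-sided), adjusted by Benjamini-Hochberg. The fit was also run on simulated set values, drawn independently from its own variance model. That run does not bear on dye effects, opposite deviations of same-numbered arrays or differing probes. Genes were named from the platform annotation, in which 13694 of 13738 probes with 1 symbol matched the mouse gene table by Entrez ID. Promoter sequences were read from RefSeq and searched for 4 motifs.

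The 9 genes and all lists were chosen with earlier results of these data known. Genes named in the text were the 9 genes, up to 3 past and 2 short of the threshold with the largest change in each list, the 3 closest in ratio to each gene that rose at least 2-fold, and Tlr4, Ticam1, Tbk1, Ikbke, Ifnar1, Ifnar2, Stat2, Spi1, Actb and Gapdh. One further gene of the rule is not reported here. Alternatives covered scaling, centring, set numbers, single orientations, sets left out, missing values, probes, variance and thresholds.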

Additional observations from a re-analysis of the deposited data

How the results depend on the processing

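Under the alternatives run, Ifnb1, Irf1, Irf7, Irf8 and Irf9 stayed higher and past the threshold, also against a 1.5-fold change. With a set left out they ranged from 3.75 to 4.31, 2.09 to 2.28, 1.88 to 2.20, 1.03 to 1.06 and 0.91 to 1.08, and all 9 genes together had 5 to 6 calls. Irf5 was the exception. Its mean of 0.17 missed the threshold with the 6 arrays as separate values without a replicate block (adjusted p = 0.267), with the set as a fixed replicate block (adjusted p = 0.449), at an adjusted p of 0.01 and against a 1.5-fold change. With a set left out it ranged from 0.17 to 0.18 (adjusted p up to 0.0670), and with treated RNA in Cy5 alone it turned to -0.040. Irf2 was at 0.33 and passed with treated RNA in Cy5 alone, and stood at -0.053 with it in Cy3 alone. Irf2, Irf3, Irf4 and Irf5 have no value where both orientations of every set must have the same sign. The cause of these shifts was not tested. Over all features the set means gave 3294 calls, and separate fits gave 1752 with the fixed replicate block, 2467 with no replicate block, 1825 with treated RNA in Cy5 alone, 2127 at 0.01 and 296 against a 1.5-fold change, where 88.2% were higher, against 48.1% by set means. For the dye effect, 0 features passed by set means, 554 with no replicate block, 2197 with the fixed replicate block, 151 with a random one, 1 with single probes and 0 to 6 with a set left out. Same-numbered arrays of opposite orientation had deviations from their group means that correlated at -0.484, -0.512 and -0.020 in treated over untreated direction, while arrays of differing numbers reached 0.527 (Cy5 set 2 with Cy3 set 1) and 0.450 (Cy5 set 1 with Cy3 set 2), so the numbers were not shown to pair the RNA samples, and each set mean and its SD rest on them. Opposite deviations, as in sets 1 and 2, partly cancel in a set mean, so an SD over sets can understate the spread between arrays. The adjusted p-values of the main fit and its 3294 calls rest on that SD. Other named genes held in 925 comparisons with the alternatives, were lost in 32, gained in 13 and moved without a call in 18. The absence of intensities limits what can be said of Irf3, Irf4 and the alpha interferons.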
